A study of Mus musculus with 14 samples.

Results

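AMPA and kainate receptors are glutamate-gated ion channels of neurons, and AMPA receptors carry most fast excitatory transmission. The genes described here are the 9 that encode their pore-forming subunits, chosen by gene name: Gria1 to Gria4 for the AMPA receptor subunits GluA1 to GluA4, and Grik1 to Grik5 for the kainate receptor subunits GluK1 to GluK5. All 9 of the 9 were among the 23523 gene entries, and all 9 passed the minimum mean signal of 1 in both comparisons below.

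Each receptor is a tetramer, and the subunit mix sets its conductance, kinetics and calcium permeability. GluA2 makes AMPA receptors nearly impermeable to calcium after its messenger RNA is edited by the adenosine deaminase ADAR2, and motoneurons are known for a sensitivity to calcium entry through receptors that lack it. GluK1, GluK2 and GluK3 can form kainate channels on their own, while GluK4 and GluK5 bind glutamate with high affinity but need one of the other subunits to reach the surface as a channel.

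The study compared messenger RNA of motoneurons with and without microRNA-218 (miR-218), a small RNA abundant in motoneurons, and of other spinal cell types. Motoneurons carried the Hb9::gfp reporter and were sorted as GFP-positive cells from mouse spinal cords at E12.5 (E, embryonic day): 6 libraries were wild type (WT replicates 1 to 6) and 2 were from the 218DKO background, which lacks both genes of miR-218 (DKO replicates 1 and 2). Wild-type interneurons of the same stage were sorted as tdTomato-positive cells carrying Rosa26:LSL:tdTomato and a Cre driver of their type (En1:cre for V1, Sim1:cre for V3, and another driver for V2a), with 1 library each. Cultured wild-type stem cells (mES, mouse embryonic stem cells), collected 4 days into differentiation, supplied tdTomato-positive motoneuron progenitors (mES_pMN, Olig2:cre with the same Rosa26 reporter; 1 library) and 1 library of unsorted neural progenitors without a reporter (mES_NP). A Cre reporter also marks cells that expressed the driver earlier, and the labels do not say whether libraries came from separate embryos, so p-values measure the spread between these samples, which may be technical. The labelled floor plate sample was not analysed here.

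The values are a length-scaled signal per gene that the authors scaled between libraries, so levels can be set side by side between genes as well as between libraries. Approximate depths ran from 7.36 M reads (DKO replicate 1; the second DKO library had 15.4 M) to 28.1 M. For a transcript of 2000 bases, 3 reads correspond to a signal of 0.994 to 3.94, and precision below that range is poor. Mnx1, which encodes the Hb9 protein, ranged over 2194 to 3995 in WT motoneurons, was 4330 and 3863 in DKO motoneurons, and did not exceed 7.46 in interneurons. En1 (851 in V1), Shox2 (3975 in V2a) and Sim1 (808 in V3) matched their libraries' labels, although the V2a library also held 309 of Chat, a cholinergic gene. The WT libraries were not uniform. The signal of Rn45s (a precursor of ribosomal RNA) was 644, 10197, 27943, 14356, 2345 and 4275 in WT replicates 1 to 6, highest in replicates 2, 3 and 4, against 1647 and 1112 in the DKO and 1841 to 2160 in the interneuron libraries. Results that move with this split are given with it below.

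The sequence that the knockout removes is the mature miR-218, shown because its seed (bases 2 to 8, in capitals) was searched for in the 3′ untranslated regions (3′ UTRs) of the 9 genes. It was taken from RefSeq.
mmu-miR-218-5p: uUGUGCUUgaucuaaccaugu

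Of the 9 genes, 4 held a match to that seed in an annotated 3′ UTR and 5 did not. The 30-base windows around the 4 matches are shown in the direction of the transcript, with the match in capitals, from GENCODE M21 transcripts on GRCm38 (mm10). A match is AAGCACA (7mer-m8), AAGCACAA (8mer, which contains the 7mer-m8) or AGCACAA (7mer-A1, also contained in the 8mer), searched on the transcript strand only. A gene with several matches counts once, in the longest class.
Gria2: tcataatgactAAGCACActtgacatcaac
Gria4: atctttgcagaAAGCACAAattaggatgat
Grik2: gccaatcacccAAGCACAAactgtcgtctt
Grik3: aaggccagcggAAGCACAtgcctctcaggc

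The Gria2 match lies at chr3:80688236-80688242 on the minus strand and the Grik3 match at chr4:125708327-125708333 on the plus strand, and both are 7mer-m8. The Gria4 match at chr9:4418661-4418668 and the Grik2 match at chr10:49101080-49101087 are 8mers on the minus strand. For comparison, 19.9% of 14711 tested genes with an annotated 3′ UTR held any of the 3 kinds of match (4.24% an 8mer, 10.4% a 7mer-m8 and 5.25% a 7mer-A1). Genes with a match had longer 3′ UTRs, with a median of 2401 bases against 844 bases in genes without one. The UTRs with a match measured 7268 bases in Gria2, 6275 in Grik2, 6082 in Grik3 and 2256 in Gria4, and those without one 2598 in Gria1, 2586 in Gria3, 295 in Grik1, 2694 in Grik4 and 520 in Grik5.

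In WT motoneurons the AMPA receptor genes Gria4 and Gria2 and the kainate receptor gene Grik5 dominated. Grik5, the gene for the high-affinity subunit GluK5 (chr7:25009849-25072346), had the highest mean signal of the 9, 1052 ± 158 (SD, n = 6). Gria4 (chr9:4417896-4796234) followed at 861 ± 148 and Gria2 (chr3:80681450-80802835) at 710 ± 291. The next group was Gria1 (chr11:57011387-57330244) at 245 ± 24.7, Grik3 (chr4:125490700-125714173) at 244 ± 54.4 and Gria3 (chrX:41400854-41678601) at 200 ± 23.4. Grik4 (chr9:42518135-42944493) at 144 ± 28.7, Grik2 (chr10:49094833-49788766) at 112 ± 19.3 and Grik1 (chr16:87895900-88290265) at 77.1 ± 14.9 were lowest. In that order, the ranges of neighbours overlapped except between Gria2 and Gria1 and between Gria3 and Grik4, so most neighbours in this order are not told apart by their ranges.

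**Figure D1:**
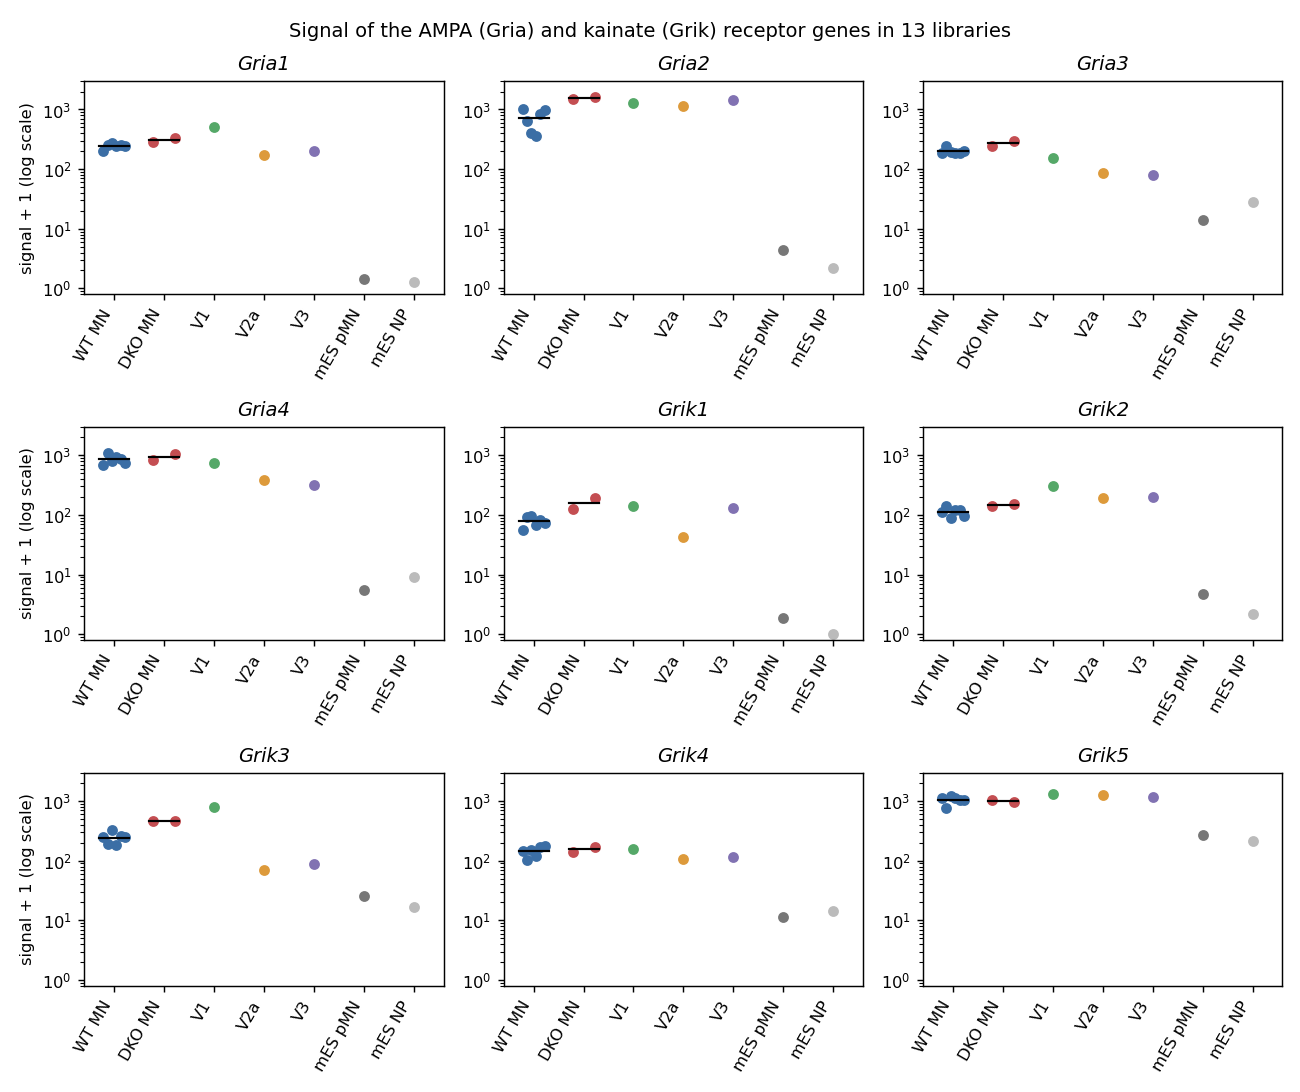
Signal + 1 on a log axis for the 9 receptor genes, with 1 point per library and a black bar at the mean of the 6 WT and of the 2 DKO motoneuron libraries. The neuron libraries lie between 41.3 (Grik1 in V2a) and 1624 (Gria2 in DKO replicate 2), and in every panel both mES progenitor libraries lie below all neuron libraries.

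The AMPA subunit mix was measured as each gene's share of the summed Gria signal, as a description without a test. Gria2 made up 49.0%, 28.4%, 23.9%, 21.1%, 38.6% and 45.4% of the Gria signal in WT replicates 1 to 6, a mean of 34.4% ± 11.6 (SD, n = 6). Gria4 made up 33.0%, 49.3%, 48.3%, 53.9%, 40.8% and 34.2%, a mean of 43.3% ± 8.61. WT replicates 1 and 6 thus held more Gria2 than Gria4, and the other 4 held more Gria4. In the DKO libraries Gria2 was 52.6% and 48.8% and Gria4 28.9% and 32.1%, so Gria2 led in both, although the Gria2 share of DKO replicate 2 lies just below that of WT replicate 1.

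Each interneuron library also held more Gria2 than Gria4. The V1 library was 47.9% Gria2, 27.6% Gria4, 18.9% Gria1 and 5.66% Gria3. The V2a library was 64.4% Gria2 and 21.4% Gria4, and the V3 library 70.8% Gria2 and 15.7% Gria4. The Gria2 shares of V2a and V3 and the Gria1 share of V1 lay above all 6 WT values, whereas the Gria2 share of V1 lay within their range. Gria3 contributed 4.69% in V2a and 3.91% in V3, against 8.67% to 11.6% in WT motoneurons.

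In the kainate mix, Grik5 was the largest component of every neuron library. Its share of the Grik signal was 58.9% to 70.1% in WT motoneurons, 54.4% and 49.9% in DKO motoneurons, 48.3% in V1, 75.5% in V2a and 68.8% in V3. Grik3, the gene for a subunit of low glutamate affinity, was the second component in motoneurons and V1: it held 11.2% to 17.8% in WT, 24.3% and 23.7% in DKO and 29.7% in V1. In V2a and V3, Grik2 was second instead, with 11.6% and 11.8%, and Grik3 held only 4.11% and 5.05%. Grik1 reached 7.64% in V3 and 2.48% in V2a. The ratio of summed Grik to summed Gria signal was 0.568 to 1.11 in WT, 0.667 and 0.584 in DKO, and 1.02, 0.927 and 0.832 in V1, V2a and V3.

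**Figure D2:**
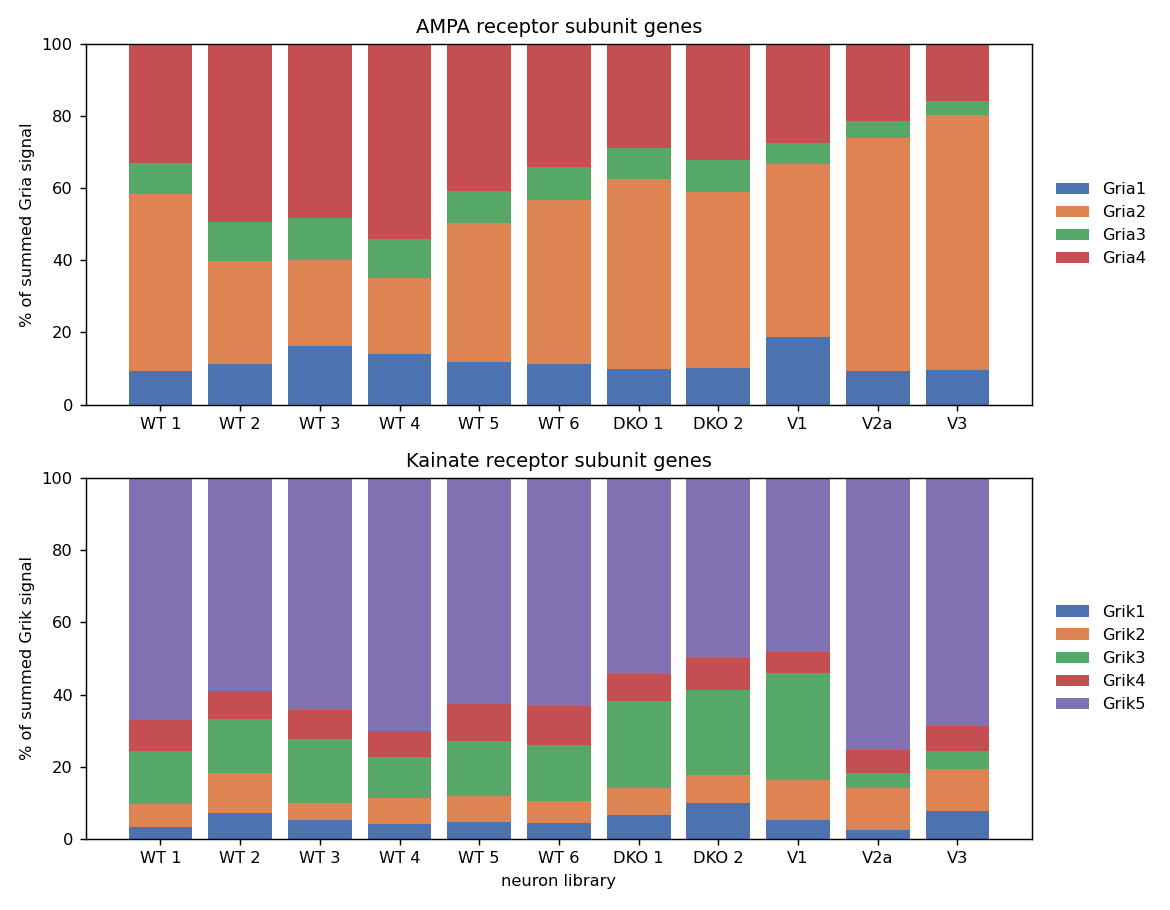
Share of each gene in the summed Gria signal (top) and in the summed Grik signal (bottom), in percent, for each of the 11 neuron libraries. Gria2 ranges from 21.1% to 49.0% among the WT libraries and reaches 70.8% in V3, and Grik3 is larger in the DKO and V1 libraries than in the WT, V2a and V3 libraries.

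In the progenitors both families were low. The summed Gria signal was 21.2 in mES_pMN and 36.6 in mES_NP, against 1670 to 3328 in the neuron libraries, and Gria3 was its main component (60.9% and 73.6%). Gria1 was at 0.422 and 0.300 and Gria2 at 3.40 and 1.18, close to what a few reads give, and Grik1 was listed at 0 in mES_NP. Grik5 was the exception, with 265 in mES_pMN and 212 in mES_NP, and made up 87.0% and 87.4% of their Grik signal.

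Loss of miR-218 was examined by comparing the 2 DKO with the 6 WT motoneuron libraries with limma. The kainate receptor genes Grik3 and Grik1 rose about 2-fold, no subunit gene fell, and Gria2 was more than 2-fold higher in the means without passing the threshold. Of the 9 genes, 2 were called higher at an adjusted p under 0.05 and 0 lower, and across all 16260 genes tested 3.22% were called higher and 4.77% lower (7.99% together). Both DKO libraries lay above every WT library for 6 of the 9 genes, where 14.9% of all genes tested did so, and below every WT library for 0, where 15.8% did (30.7% together). The median difference of the 9 genes was 0.40 log2 units, and of all genes 0.0015. In sorted bulk samples, a change in the mix of cells and a change of RNA per cell cannot be told apart.

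Single genes of several marker lists also differed between genotypes. Of 10 motoneuron markers, 4 were lower in both DKO libraries than in every WT library and 1 was higher. Of all genes tested, 15.8% were so placed lower and 14.9% higher. The largest of the 10 markers, Prph, a neuronal intermediate filament gene, was at 4826 to 7874 in WT and at 448 and 459 in DKO libraries. The other 9 summed to 10437 to 12227 in WT and to 11651 and 10946 in DKO libraries, inside the WT range. Of 9 neural progenitor markers 1 was lower and 0 higher: Vim was at 3601 to 5184 in WT and at 2150 and 1809 in DKO libraries, and the other 8 summed to 664 to 1748 and to 849 and 726, again inside the WT range. Of 8 cell cycle genes 5 were lower and 0 higher, and the sum of the 8 was 191 to 306 in WT and 118 and 122 in DKO libraries. Among those lower, Aurkb (0 in both DKO libraries) and Cdk1 (1.83 and 0.874) lay near what a few reads give. Of 8 V1 markers 2 were higher and 2 lower, and their sum was 915 to 1245 in WT and 1399 and 1363 in DKO libraries. Of 5 V3 markers 1 was higher and 0 lower, and their sum was 209 to 354 in WT and 440 and 470 in DKO libraries. Both sums thus lay above every WT library in the DKO libraries. The defining markers En1 (2.05 and 1.96 in the DKO libraries) and, for V3, Sim1 (0.355 and 0.679) were near 0. The part of these genes in the results below was not tested.

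Grik3 was at 250, 189, 331, 181, 258 and 254 in WT replicates 1 to 6 and at 463 and 460 in the DKO libraries. The groups do not overlap, and the DKO libraries nearly coincide. The means were 244 ± 54.4 (n = 6) and 462 ± 2.08 (n = 2), a 1.89-fold rise, with a difference of 0.95 log2 units (SE 0.20; limma adjusted p = 0.0185). Its 3′ UTR holds a seed match.

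Grik1 was at 55.9, 92.3, 94.2, 66.5, 79.9 and 73.7 in WT replicates 1 to 6 and at 124 and 192 in the DKO libraries. Again the groups do not overlap, but the DKO libraries differ from each other. The means were 77.1 ± 14.9 and 158 ± 48.1, a 2.05-fold rise, with a difference of 1.02 log2 units (SE 0.23; limma adjusted p = 0.0250). Grik1 has no seed match in its annotated 3′ UTR, which is the shortest of the 9. Both calls rest on having both DKO libraries: without DKO replicate 1 the limma adjusted p was 0.173 for Grik3 and 0.0810 for Grik1, and without DKO replicate 2 it was 0.165 and 0.302. For Grik1 the call was also lost with WT replicates 2, 3 and 4 alone (adjusted p = 0.0516) and in a fit of all 13 libraries (adjusted p = 0.0573).

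Gria2 had the largest difference and the widest WT spread. Its signal was 1035, 640, 399, 363, 826 and 997 in WT replicates 1 to 6 and 1502 and 1624 in the DKO libraries, so the DKO libraries stood above all 6. The means were 710 ± 291 and 1563 ± 86.3, a 2.20-fold difference of 1.25 log2 units (SE 0.37) that did not pass the threshold (limma adjusted p = 0.0623). The WT replicates with the lowest Gria2, 2, 3 and 4, are those with the highest Rn45s signal given above. Some markers of other cells moved with the same split. The summed signal of 7 microglia and macrophage markers was 177, 23.2 and 29.3 against 4.67 to 7.14, and that of 9 glial markers 141, 118 and 98.3 against 49.7 to 65.7. In the DKO libraries, which held the most Gria2, the microglia sum was 5.36 and 12.9 and the glial sum 72.2 and 45.1. The sum of 8 V1 markers did not follow the split: it was 1232, 920, 1245, 958, 1218 and 915 in WT replicates 1 to 6. In the DKO libraries the V1 sum was 1399 and 1363, above every WT library. The part of these in the result was not tested. Within either set of WT libraries the difference passed: it was 1.78 log2 units (adjusted p = 0.00665) against replicates 2, 3 and 4, and 0.72 (adjusted p = 0.0109) against replicates 1, 5 and 6. This split parts the lowest from the highest WT values of Gria2 and so removes much of the WT spread. A smaller adjusted p within each set is partly built in and adds no support. The Gria2 difference also passed with limma's array weights (1.02, adjusted p = 0.0226), and without WT replicate 1 (adjusted p = 0.0394) or WT replicate 6 (adjusted p = 0.0496). With replicate number as a block, in the 2 WT and 2 DKO libraries that share numbers, the difference was 0.94 (adjusted p = 0.0248), and without the block in the same 4 libraries the adjusted p was 0.184. Over all alternative settings Gria2 passed in 6 and did not pass in 15. Leaving out 1 library gave differences of 1.08 to 1.38 log2 units.

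The remaining AMPA genes did not pass. Gria3 was at 183 to 246 in WT and at 247 and 299 in DKO libraries, a difference of 0.45 log2 units (95% interval 0.13 to 0.76; limma adjusted p = 0.0773) with DKO replicate 1 barely above the highest WT library. The Gria3 difference passed without WT replicate 2, the highest (adjusted p = 0.0180), and with WT replicates 1, 5 and 6 alone (adjusted p = 0.0302). Gria1 was at 198 to 271 in WT and at 280 and 336 in DKO libraries (0.33 log2 units, 95% interval 0.03 to 0.64; adjusted p = 0.155). Gria4, with an 8mer match, was at 697 to 1111 in WT and at 825 and 1068 in DKO libraries, which lie inside the WT range (0.14, 95% interval −0.23 to 0.51; adjusted p = 0.632).

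Among the other kainate genes, Grik2, which also holds an 8mer match, was at 87.5 to 142 in WT and at 142 and 152 in DKO libraries (0.40 log2 units, 95% interval 0.0037 to 0.81; limma adjusted p = 0.186). DKO replicate 1 (142.457) and the highest WT library (142.439) were all but equal, so its place among the 6 genes without overlap rests on that margin. The high-affinity subunit genes overlapped between genotypes. Grik4 was at 102 to 177 in WT and at 138 and 169 in DKO libraries (0.11, 95% interval −0.34 to 0.57; adjusted p = 0.768), and Grik5 at 755 to 1193 and at 1036 and 970 (−0.05, 95% interval −0.40 to 0.29; adjusted p = 0.860). Of the 4 genes with a seed match 1 was called higher, and of the 5 without one also 1. Among all tested genes searched for a match, 293 of the 2928 with one were called higher and 77 lower. Of the 11783 without a match, 181 were called higher and 679 lower. The subunit genes are too few to show or exclude such a difference. Genes with a match also had longer UTRs, as given above, and the part of UTR length was not tested.

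**Figure D3:**
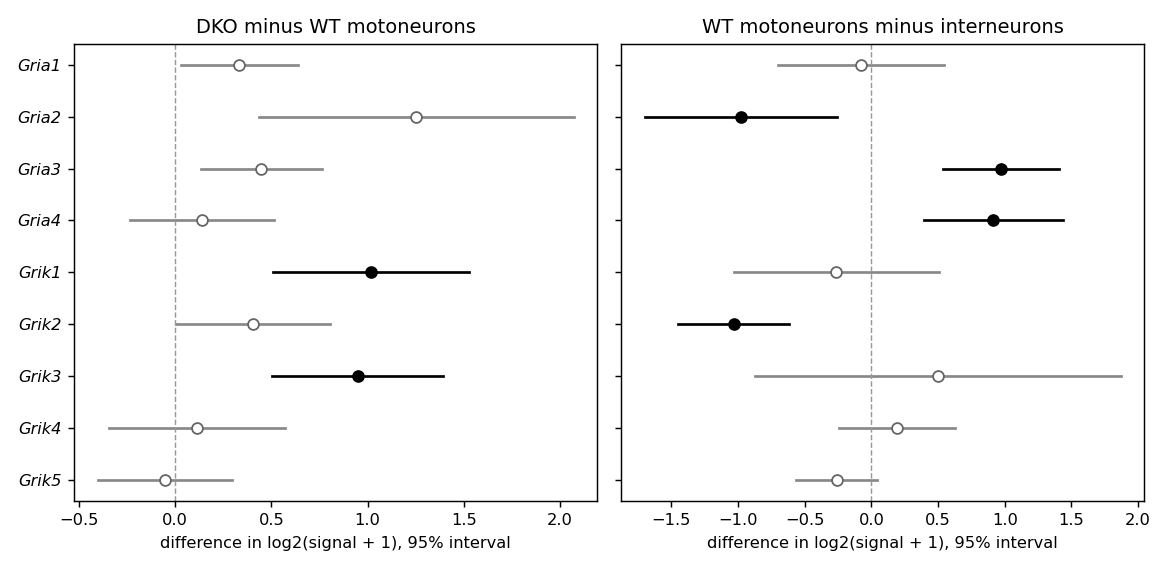
Difference in log2(signal + 1) for the 9 genes with its 95% interval from limma, for DKO minus WT motoneurons (left) and WT motoneurons minus interneurons (right), with filled points for an adjusted p under 0.05. Grik1 and Grik3 are filled on the left, and Gria2, Gria3, Gria4 and Grik2 on the right, where the interval of Grik3 is the widest.

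Motoneurons were set against the 3 interneuron libraries taken as 1 class, which tests the class and not each type. WT motoneurons held more Gria3 and Gria4 and less Gria2 and Grik2 than the interneurons. Of the 9 genes, 2 were called higher in motoneurons and 2 lower, where 17.7% of the 16486 genes tested were called higher and 15.2% lower (32.9% together), so the share of subunit genes called was near that of all genes. The groups did not overlap for 1 gene higher and 2 lower, where 17.0% and 16.1% of all genes (33.1% together) were so placed. The WT libraries are the same as in the genotype comparison, so the results of both are not independent. The interneuron libraries also held markers of other cells: the sum of 7 blood markers (9 gene entries) was 13504 in V2a (7.20 to 1490 in WT motoneurons), and V3 held 1661 of the 8 cell cycle genes and 934 of 7 mesenchyme and meninges markers (191 to 306 and 7.38 to 212 in WT motoneurons). Their part in the differences was not tested.

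Gria3 was at 183 to 246 in WT motoneurons and at 152, 84.2 and 80.0 in V1, V2a and V3, with no overlap. The means were 200 ± 23.4 (n = 6) and 105 ± 40.5 (n = 3), a difference of 0.97 log2 units (SE 0.20; limma adjusted p = 0.00442). Gria4 was at 697 to 1111 in motoneurons and at 741, 385 and 321 in V1, V2a and V3, and V1 lay inside the motoneuron range. Its difference was 0.92 log2 units (SE 0.23; limma adjusted p = 0.0139), and the call was lost without V2a (adjusted p = 0.0602), without V3 (0.0585) or with WT replicates 1, 5 and 6 alone (0.114). Part of the Gria4 signal comes from a short form described below. The full-length Gria4 transcripts alone were at 343 to 549 in motoneurons and at 469, 225 and 211 in V1, V2a and V3. A difference in them was not tested.

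Grik2 was at 87.5 to 142 in motoneurons and at 305, 194 and 201 in V1, V2a and V3, all above every motoneuron library. The means were 112 ± 19.3 and 233 ± 62.6, a difference of −1.03 log2 units (SE 0.19; limma adjusted p = 0.00255). Gria2, at 363 to 1035 in motoneurons, was at 1288, 1157 and 1449 in V1, V2a and V3, again without overlap. Its difference was −0.98 log2 units (SE 0.33; limma adjusted p = 0.0406). Against WT replicates 2, 3 and 4 alone it was −1.51 (adjusted p = 0.00457) and against replicates 1, 5 and 6 alone −0.45 (adjusted p = 0.0449). As above, this split parts the lowest from the highest WT values of Gria2, so these adjusted p-values add no support. The Gria2 call was lost when WT replicate 2 (adjusted p = 0.0661), WT replicate 3 (0.0672), WT replicate 4 (0.0584), V1 (0.0802), V2a (0.0752) or V3 (0.108) was left out, and in a fit of all 13 libraries (0.0789).

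The 3 interneuron types differed among themselves in Grik3, Grik1 and Gria1, with 1 library each and no test. Grik3 was at 810 in V1 and at 68.4 in V2a and 86.1 in V3, on either side of the motoneuron range of 181 to 331. Its class difference was 0.50 log2 units (SE 0.62; limma adjusted p = 0.556), and without V1 it was 1.62 (adjusted p = 0.000573). The sign on the log scale also differs from that of the means, 244 in motoneurons and 321 in interneurons. Grik1 was at 140 in V1 and 130 in V3, above all WT libraries, and at 41.3 in V2a, below all of them. Its class difference was −0.26 (limma adjusted p = 0.578), and without V2a −0.83 (adjusted p = 0.0257). Gria1 was at 507 in V1, 170 in V2a and 197 in V3, against 198 to 271 in motoneurons (−0.08; adjusted p = 0.850).

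Grik5 and Grik4 were not called between motoneurons and interneurons, although Grik5 in V1 and V2a lay above every WT motoneuron library. Grik5 was at 1319, 1257 and 1172 in V1, V2a and V3 (−0.26 log2 units, 95% interval −0.56 to 0.04; limma adjusted p = 0.158). Grik4 was at 156, 105 and 115 (0.19, 95% interval −0.25 to 0.63; adjusted p = 0.472). With limma's array weights Grik3 (1.61), Grik4 (0.53) and Grik5 (−0.25) passed. Counted by library, V1 lay above every WT motoneuron library for 6 of the 9 genes (31.1% of all genes) and below for 1 (30.3%), V2a above for 3 (30.3%) and below for 5 (28.4%), and V3 above for 3 (31.3%) and below for 4 (29.2%).

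AMPA receptor subunits also occur as flip and flop forms, which carry one of a pair of alternative exons next to the last membrane segment and differ in how fast the receptor desensitizes. The exons of Gria4 are shown because one of its transcripts lay above and another below every WT library in both DKO libraries. Capitals mark the 31 positions at which these exons of 115 bases differ (73.0% identity). Flip lies at chr9:4427030-4427144 and flop at chr9:4432773-4432887, on the minus strand of GRCm38, each as exon 15 of its transcript.
Gria4 flip exon: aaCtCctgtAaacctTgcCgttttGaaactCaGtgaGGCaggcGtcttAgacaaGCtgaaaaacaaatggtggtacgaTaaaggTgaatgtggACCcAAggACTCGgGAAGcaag
Gria4 flop exon: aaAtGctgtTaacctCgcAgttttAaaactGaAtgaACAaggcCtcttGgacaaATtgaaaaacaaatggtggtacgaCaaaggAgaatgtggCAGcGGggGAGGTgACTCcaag

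The Gria4 signal was spread over 3 transcripts: a full-length flip form, a full-length flop form (both of 902 codons) and a short form of 433 codons that ends before the exons shown and lacks the seed match. In WT replicates 1 to 6 the flip transcript was at 296, 480, 348, 310, 301 and 257 and the flop transcript at 72.3, 68.8, 71.4, 98.8, 50.1 and 86.0. In the DKO libraries flip was at 147 and 203 and flop at 197 and 209. Flip was thus lower and flop higher in both DKO libraries than in every WT library, while their sum, 407 ± 76.2 in WT and 378 ± 48.0 in DKO, overlapped.

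Flop made up 12.54% to 25.1% of the full-length Gria4 signal in WT (mean 18.8% ± 5.13, n = 6), 57.2% and 50.8% in DKO, and 37.5%, 47.1% and 32.4% in V1, V2a and V3. This is a description with no test, and the transcripts were singled out after their values were seen. Among 19 transcripts of the 9 genes, 7 lay above every WT library in both DKO libraries and 1 below, where 12.8% and 12.4% of the 21820 transcripts compared were so placed. The depth behind it was small: the signal corresponds to about 6.44 flip and 8.62 flop reads over the alternative exon in DKO replicate 1, 18.6 and 19.2 in DKO replicate 2, and 22.4 to 52.1 flip and 4.60 to 12.53 flop reads in the WT libraries. The flip and flop entries also differ at their 5′ ends, so their split does not rest on these exons alone, and the sources used here do not give how the authors divided reads between transcripts.

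The same share for Gria1 did not separate the genotypes. Flop was 18.7% to 29.4% of the Gria1 signal in WT, and 15.8% and 58.4% in the DKO libraries, on either side of the WT range. The split of Grik1 was also unstable: its transcript of 905 codons was at 0 in DKO replicate 1 and at 116 in DKO replicate 2, so no form of Grik1 is read from these data.

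The short Gria4 form held 47.1% to 59.9% of the Gria4 signal in WT and 58.3% and 61.4% in the DKO libraries. In V1, V2a and V3 it held less, 36.6%, 41.6% and 34.4%. Counting full-length coding transcripts only therefore moved the mix: Gria2 made up 58.5%, 38.4%, 31.6%, 32.3%, 53.2% and 57.9% of the Gria signal in WT replicates 1 to 6, 65.3% and 62.2% in DKO, and 53.9%, 71.3% and 75.4% in V1, V2a and V3. On that count Gria2 led in every neuron library except WT replicates 3 and 4, and both DKO libraries lay above all 6 WT libraries.

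**Figure D4:**
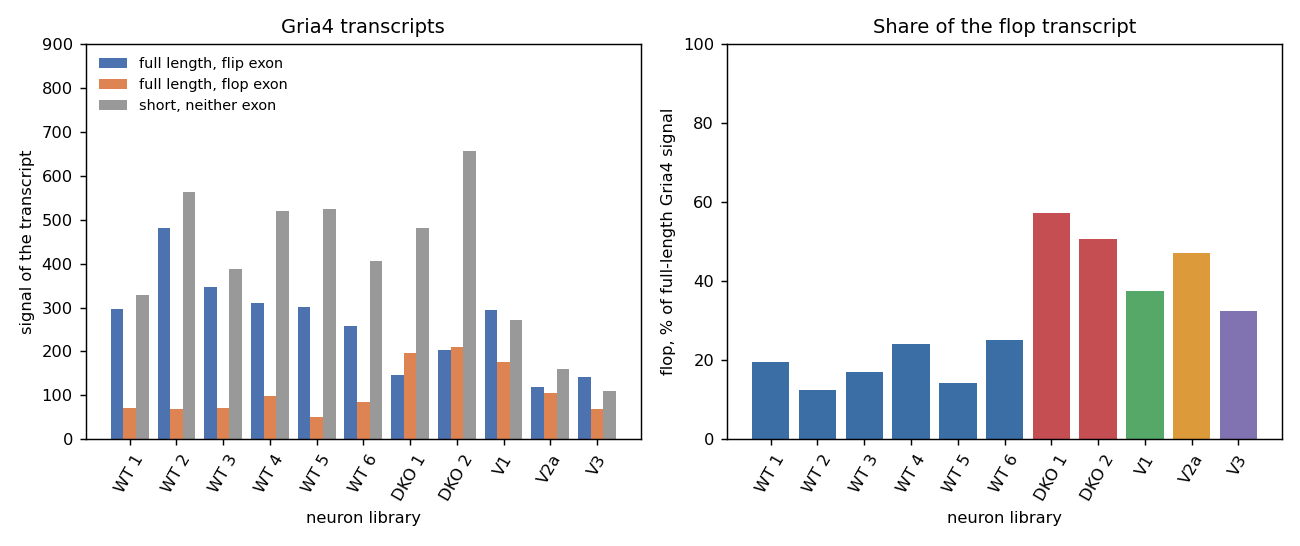
Signal of the 3 Gria4 transcripts (left) and flop as a percentage of full-length Gria4 signal (right) in the 11 neuron libraries. Flop is 12.54% to 25.1% in the 6 WT motoneuron libraries and 32.4% to 57.2% in the other 5 libraries.

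Receptors reach the synapse with partner proteins, given here from 5 lists of AMPA and kainate auxiliary subunits, assembly and scaffold proteins, trans-synaptic organisers and RNA editing enzymes. Of 61 listed genes 58 were tested. In DKO against WT motoneurons 3 were called higher and 2 lower, and 53 did not pass (all genes: 3.22% and 4.77%). The median difference was 0.11 log2 units, against 0.0015 for all genes.

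Cnih3, a cornichon protein that slows AMPA receptor deactivation, fell. It was at 113, 149, 166, 157, 189 and 141 in WT replicates 1 to 6 and at 57.7 and 63.4 in the DKO libraries, with no overlap (−1.30 log2 units, SE 0.18; limma adjusted p = 0.0033). Cacng5, a transmembrane AMPA receptor regulatory protein, fell from 50.4 ± 8.50 to 27.4 ± 2.54 (−0.84; adjusted p = 0.0397).

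Dlg2, a postsynaptic scaffold protein, rose from 156 ± 20.3 to 359 ± 35.4 (1.21, SE 0.15; limma adjusted p = 0.0020). Nptx2, a secreted pentraxin that clusters AMPA receptors, rose from 162 ± 46.5 to 297 ± 29.8 (0.91; adjusted p = 0.0415). C1ql3, a secreted C1q-like protein, rose from 199 ± 36.1 to 331 ± 14.3 (0.75; adjusted p = 0.0279). Without DKO replicate 1 only Dlg2 of these 5 passed (adjusted p = 0.0353), and without DKO replicate 2 only Cnih3 (adjusted p = 0.0436). Over all alternative settings the call was lost in 10 for Cacng5, 9 for Nptx2, 6 for C1ql3 and 2 each for Cnih3 and Dlg2. In the fit of all 13 libraries the limma adjusted p was 0.0560 for Cacng5, 0.0851 for Nptx2 and 0.0610 for C1ql3. Leaving out 1 WT library ended the Nptx2 call for replicate 4 (adjusted p = 0.0608), 5 (0.0647) or 6 (0.0639) and the Cacng5 call for replicate 3 (0.0652), 4 (0.0722) or 5 (0.0627).

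In WT motoneurons against interneurons, 16 of the 58 partner genes were called higher, 10 lower and 32 did not pass (all genes: 17.7% and 15.2%). Among 17 tested AMPA auxiliary genes 8 were higher and 4 lower, with a median difference of 0.69 log2 units against −0.04 for all genes. Cnih3 stood out in size: it averaged 153 ± 25.3 in motoneurons and 10.8 ± 5.03 in interneurons, a 14.1-fold difference. Prrt2 (453 ± 67.1 against 148 ± 21.7), Shisa6 (50.2 against 14.7), Syndig1 (253 against 118) and Shisa9 (25.6 against 11.1) were also higher in motoneurons, and Prrt1, a relative of Syndig1, was lower (27.5 against 158). The interneuron types differed: Syndig1 was at 263, 72.4 and 17.9 in V1, V2a and V3, with V1 inside the motoneuron range. Shisa9 was at 22.1, 10.2 and 0.959, with V1 just below the lowest motoneuron library (22.7). Prrt1 was at 317, 94.3 and 61.2, with V3 inside the motoneuron range of 10.3 to 63.1. The Syndig1 call was lost in 9 and the Shisa9 call in 13 of the alternative settings, and with WT replicates 1, 5 and 6 alone so were those of Prrt1 (limma adjusted p = 0.115) and Shisa6 (0.0697).

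Neto1, 1 of the 2 kainate receptor auxiliary subunits, was higher in motoneurons (62.0 ± 12.7 against 16.2 ± 17.6), a call lost with WT replicates 1, 5 and 6 alone (limma adjusted p = 0.0571). Of 12 trans-synaptic organisers tested 4 were higher and 0 lower (all genes: 17.7% and 15.2%). C1ql3 averaged 199 in motoneurons and 64.5 in interneurons, and Lrrtm3, a postsynaptic adhesion protein, 270 and 82.0. Olfm3 averaged 108 and 39.8, and C1ql2 5.59 and 1.30. C1ql2 was at 2.82, 1.09 and 0 in V1, V2a and V3, close to what a few reads give. For C1ql2, V1 lay just below the lowest motoneuron library (2.86), as it did for Olfm3 (86.7 against 88.8). The Olfm3 call was lost in 4 alternative settings and those of C1ql3 and C1ql2 in 3 each. Without V2a the limma adjusted p was 0.0685 for Olfm3 and 0.0528 for C1ql2, without V3 0.0562 and 0.0764, and with array weights 0.0724 for C1ql3. Of 24 assembly and scaffold genes 3 were higher and 5 lower (all genes: 17.7% and 15.2%). Camk2b, a kinase subunit of the postsynaptic density, averaged 1022 and 403, Frrs1l, an AMPA receptor assembly factor, 188 and 83.1, and Prkca, a protein kinase C, 142 and 74.9, the last lost with WT replicates 1, 5 and 6 alone (limma adjusted p = 0.0950). Among those lower, Dlg2 averaged 156 in motoneurons and 373 in interneurons, Dlg3, another scaffold protein, 412 and 773, and Cpt1c, a component of early AMPA receptor complexes, 252 and 452.

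Adarb1, which encodes the enzyme ADAR2 that edits Gria2 messenger RNA, was at 83.6, 51.2, 54.4, 57.6, 74.0 and 71.9 in WT replicates 1 to 6, at 104 and 115 in the DKO libraries and at 135, 100 and 83.5 in V1, V2a and V3. It was lower in WT motoneurons than in interneurons (−0.69 log2 units; limma adjusted p = 0.0301), a call lost in 5 alternative settings, and did not pass between genotypes (0.76; adjusted p = 0.0508). WT replicates 2, 3 and 4 were the lowest for Adarb1 as they were for Gria2. Editing itself cannot be read from these files.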

How the data were processed

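Messenger RNA was selected with oligo-dT and made into libraries with a kit, per the labels' protocols. The authors deposited 1 signal value per RefSeq gene and transcript, per the file headers. Neither counts nor values of a fixed total, these signal values have a 75th percentile of 227.5 to 233.7 in every library. Multiplied by transcript length, 78.3% to 79.8% of low values lay within 0.1 of whole multiples of 1 constant per library, from which approximate depth was taken. The submitters' processing notes name DESeq, bedtools, mm9 and mm10 without roles, and no source used here names the aligner.

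The two-sided limma-trend test (limma 3.58.1, R 4.3.3) was fitted to log2(signal + 1), a scale that understates the change of low genes. Genes entered a comparison when their signal averaged at least 1 over its libraries. Benjamini-Hochberg adjustment ran over all genes tested, with a threshold of 0.05. On simulated data, changes of 1 log2 unit were recovered for 63% of genes in the genotype design and for 76% in the interneuron design, with 8 false calls in each. All simulated libraries, interneurons included, had the spread of the WT libraries, and changes were planted only in genes above a minimum signal. The real interneuron libraries are of different types, so the simulation does not measure recovery or false calls in that design.

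The genes, lists and tests were chosen with earlier results of these data known. All 9 subunit genes were named. Of each partner list, up to 6 genes past the threshold per comparison with the largest log2 difference were named. For each subunit gene, the 2 genes with the highest correlation over the libraries were named, among genes averaging a signal of at least 10. Alternatives changed the pseudocount, filter, scaling, weights, libraries and pairing. Exons and UTRs came from GENCODE M21. A V2a marker and the driver named for it are not reported here.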

Additional observations from a re-analysis of the deposited data

Results flagged for a closer look

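Among the 6 WT motoneuron libraries, 1 library stood far from the other 5 for 3 of the 9 genes: Gria1 in WT replicate 1 (signal 198, the lowest), Gria3 in WT replicate 2 (246, the highest) and Grik5 in WT replicate 2 (755, the lowest). Chance flags about 1 in 20 groups, and 26 sets of 6 values were examined.

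For 3 genes the interneuron libraries lay on opposite sides of all WT motoneuron libraries, with 1 library per type, so the differences were not tested. Gria1 was above in V1 (507) and below in V2a (170) and V3 (197), the last just under the lowest WT library (198, replicate 1). Grik1 was above in V1 (140) and V3 (130) and below in V2a (41.3). Grik3 was above in V1 (810) and below in V2a (68.4) and V3 (86.1).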

How the results depend on the processing

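Of the 9 genes, 2 were called higher in DKO motoneurons. This count was 6 with array weights, 4 with WT replicates 1, 5 and 6 alone, 1 in a fit of all 13 libraries, and 0 to 3 when 1 library was left out, with 0 without either DKO library. With the replicate block (replicates 1 and 2 of each genotype) it was 3, and without the block in the same 4 libraries, a setting chosen after seeing the data, 0. Whether shared replicate numbers pair the samples is not known. Correlations of deviations from the group means between WT and DKO libraries lay between −0.056 and 0.056. With 2 DKO libraries the deviations of one mirror those of the other, so these correlations cannot exclude pairing. Against interneurons, 2 were called higher: 4 with array weights, 1 with WT replicates 1, 5 and 6 alone, and 1 to 3 with 1 library left out. Also 2 were called lower: 3 with quantile normalization or array weights, where Grik5 passed, 1 in the fit of all 13 libraries, and 1 to 2 with 1 library left out. The DKO share of Gria2 was 63.8% over full-length coding transcripts, a setting also chosen after seeing the data. The sign changed only for genes not called here. In DKO against WT, Grik5 was 0.015 after quantile normalization and 0.11 in replicates 1 and 2 with or without the block. Grik4 was −0.039 with array weights and −0.089 with WT replicates 1, 5 and 6, and Gria4 −0.0041 with WT replicates 2, 3 and 4. Leaving out 1 library gave −0.035 to 0.26 for Grik4 and −0.046 to 0.33 for Gria4, both lowest without DKO replicate 2. Against interneurons, array weights gave 0.41 for Gria1 and 0.61 for Grik1, and WT replicates 2, 3 and 4 gave −0.012 for Grik4. Leaving out 1 library gave −0.37 to 0.41 for Gria1 and −0.83 to 0.045 for Grik1 (highest without V1), and −0.15 (without V2a) to 1.62 (without V1) for Grik3. The cause was not tested. Summing the transcript entries gave the gene values exactly. Depth limits the transcript split and the progenitor values.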

Other observations

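The genes whose log2(signal + 1) followed each subunit gene most closely over the 13 libraries were Esrrg and Ppm1e for Gria1 (Pearson r = 0.997 and 0.996), Scn1a and Cttnbp2 for Gria2 (0.995 and 0.994), 4933431E20Rik and Slitrk4 for Gria3 (both 0.994), and Nap1l3 and Rgs7 for Gria4 (0.998 and 0.996). For the kainate genes they were A730056A06Rik and Ralyl for Grik1 (0.992 and 0.987), Nova1 and Srgap3 for Grik2 (0.997 and 0.995), Kcnn2 and Foxp2 for Grik3 (0.984 and 0.982), Arhgef4 and Csmd2 for Grik4 (0.993 and 0.992), and Rundc3a and Rfng for Grik5 (0.992 and 0.991). The points include 2 progenitor libraries that are low in most neuronal genes and 8 motoneuron libraries, so these values describe mainly the contrast of neurons with progenitors.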
